A study of Mus musculus with 39 samples.

Results

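The 49 genes described here drive or mark the cell division cycle: 8 cyclins and kinases of G1, 3 brakes on G1, 15 genes of DNA replication (S phase) and 23 genes of G2 and mitosis. They were taken by symbol from the 24946 genes kept in each deposited table, and all 49 were found and passed the filter on low signal in every comparison. They were read in brain endothelial cells of newborn mice lacking Smad4, Alk1 (gene symbol Acvrl1) or Eng, the genes of the BMP9 pathway whose loss gives hereditary haemorrhagic telangiectasia, and in Smad4 mutants given an antibody. RNA came from C57BL/6 pups, from whole brain digested to single cells and purified on beads carrying a PECAM antibody, and went into TruSeq RNA libraries.

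Of the 39 libraries used, 30 came from pups given no antibody, called untreated here, and 9 from antibody-treated ones. Smad4 mutants carried Smad4f/f with Cdh5-CreERT2, an endothelial Cre that tamoxifen switches on, against Smad4f/f wild types (5 libraries each, postnatal day 7). Alk1 mutants carried Alk1f/f with the same Cre, against Alk1f/f wild types (5 each, day 6). Eng mutants were built likewise on Engf/f (5 and 5, day 7). In the antibody cohort, 3 Smad4 mutants had LC10, an inhibitor of angiopoietin 2, 3 Smad4 mutants had control IgG and 3 Smad4f/f wild types had control IgG (day 7, 30 µg on days 2 and 4). Tamoxifen was 300 µg on days 1 to 3 in the Smad4 and Eng models and 100 µg on day 4 in the Alk1 model. The wild types thus carry the floxed gene without Cre, so loss of the gene and presence of the recombinase cannot be told apart, and the labels do not say whether the libraries of a group came from separate pups or whether the wild types had tamoxifen too.

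A cell that leaves rest makes D cyclins, which bind Cdk4 and Cdk6, and then E cyclins, which bind Cdk2. Together these kinases inactivate Rb1 and free E2F factors, which switch on the genes of DNA replication. Later in the cycle FOXM1 and MYBL2, held on the MuvB complex, switch on the genes of G2 and mitosis, and p21-, p27- and p57-type inhibitors (Cdkn1a, Cdkn1b, Cdkn1c) hold the kinases back. Brain endothelium of newborn mice still grows new vessels, so dividing cells are part of the normal tissue at these ages.

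Motifs that bind cell cycle regulators occur in promoters of mitotic and replication genes, and 7 promoters of members are shown first. Whether these motifs bear on the changes described below was not tested. Each runs from 250 bases before the RefSeq start to 50 bases after it, 5′ to 3′ on the gene's own strand (build GRCm38.p6). Capitals mark 3 motifs on either strand. The CHR element (TTTGAA or TTCGAA) is bound by MuvB complexes, CCAAT is bound by NF-Y, and the E2F site is TTTCCCGC, TTTCGCGC, TTTGCCGC or TTTGGCGC. The first 5 are the 2 mitotic and the 2 replication genes, and the G1 gene, that rose most in Alk1 mutants among those with a sequence. Cdk1 and Mcm5 were chosen after their motifs were seen.
Ube2c: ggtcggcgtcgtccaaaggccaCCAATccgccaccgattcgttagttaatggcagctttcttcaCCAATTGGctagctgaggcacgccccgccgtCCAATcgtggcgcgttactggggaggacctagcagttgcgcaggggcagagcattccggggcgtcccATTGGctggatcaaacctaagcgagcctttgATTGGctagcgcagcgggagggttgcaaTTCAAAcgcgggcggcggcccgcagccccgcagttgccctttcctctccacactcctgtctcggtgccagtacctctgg
Ccnb1: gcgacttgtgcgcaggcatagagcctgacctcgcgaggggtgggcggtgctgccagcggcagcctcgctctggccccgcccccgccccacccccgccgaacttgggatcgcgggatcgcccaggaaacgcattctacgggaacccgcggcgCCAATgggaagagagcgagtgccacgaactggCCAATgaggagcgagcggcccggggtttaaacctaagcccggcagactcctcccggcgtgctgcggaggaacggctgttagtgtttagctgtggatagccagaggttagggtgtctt
Tk1: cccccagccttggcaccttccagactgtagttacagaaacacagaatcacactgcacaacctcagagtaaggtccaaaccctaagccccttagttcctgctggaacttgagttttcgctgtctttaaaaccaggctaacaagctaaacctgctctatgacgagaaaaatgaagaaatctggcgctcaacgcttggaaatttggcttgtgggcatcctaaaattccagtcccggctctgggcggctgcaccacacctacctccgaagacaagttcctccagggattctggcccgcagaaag
Rrm2: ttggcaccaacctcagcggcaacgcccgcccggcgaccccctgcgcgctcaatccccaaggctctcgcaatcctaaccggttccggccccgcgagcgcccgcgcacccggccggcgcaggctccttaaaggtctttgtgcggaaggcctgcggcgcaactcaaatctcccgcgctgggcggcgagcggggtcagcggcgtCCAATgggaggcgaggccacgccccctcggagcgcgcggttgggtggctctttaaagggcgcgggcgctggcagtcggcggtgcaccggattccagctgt
Ccne1: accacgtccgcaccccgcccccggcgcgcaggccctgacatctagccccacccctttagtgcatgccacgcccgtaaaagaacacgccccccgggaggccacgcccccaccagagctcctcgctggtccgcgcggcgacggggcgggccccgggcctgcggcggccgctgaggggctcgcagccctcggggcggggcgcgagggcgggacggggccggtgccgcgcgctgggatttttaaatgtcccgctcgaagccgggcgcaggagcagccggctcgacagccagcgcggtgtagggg
Cdk1: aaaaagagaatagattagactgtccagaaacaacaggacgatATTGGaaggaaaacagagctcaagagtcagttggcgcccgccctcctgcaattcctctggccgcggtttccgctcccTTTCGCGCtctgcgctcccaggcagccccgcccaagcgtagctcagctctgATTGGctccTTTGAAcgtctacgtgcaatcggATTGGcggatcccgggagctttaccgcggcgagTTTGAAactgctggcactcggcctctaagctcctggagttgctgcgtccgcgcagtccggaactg
Mcm5: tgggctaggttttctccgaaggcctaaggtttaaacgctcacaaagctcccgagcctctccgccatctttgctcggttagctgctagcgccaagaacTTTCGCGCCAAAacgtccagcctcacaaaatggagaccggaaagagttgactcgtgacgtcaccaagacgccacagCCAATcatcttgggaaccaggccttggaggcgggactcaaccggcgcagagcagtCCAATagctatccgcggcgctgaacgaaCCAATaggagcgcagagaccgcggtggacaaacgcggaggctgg

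Ube2c (chr2:164769679-164769978, plus strand) holds a CHR element on the opposite strand 29 bases before its start and 6 CCAAT motifs, of which those at -186 and -183 overlap on opposite strands. Ccnb1 (chr13:100786437-100786736, minus strand) holds CCAAT at -99 and -67 and no CHR element of the letters searched. Cdk1 (chr10:69352863-69353162, minus strand) holds CHR elements at -71 and -15, an E2F site at -131 and 3 CCAAT motifs. Mcm5 (chr8:75109259-75109558, plus strand) holds 2 E2F matches that overlap on opposite strands, at -153 and -149, and 3 CCAAT motifs. Rrm2 (chr12:24708004-24708303, plus strand) holds CCAAT at -50, whereas Tk1 (chr11:117825965-117826264, minus strand) and Ccne1 (chr7:38107441-38107740, minus strand) hold none of these letters. Positions are counted with the first transcribed base as 1 and the base before it as -1.

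Across the members, the CHR element marked the mitotic class. RefSeq sequences were at hand for 39 of the 49 members, and Ccnd1, Ccnd2, Ccne2, Rb1, Mcm4, Gins2, Ccna2, Aurkb, Kif20a and Tpx2 are named only. A CHR element lay in 15 of 19 G2-M promoters (78.9%), in 2 of 13 S promoters (15.4%), in 0 of 5 G1 promoters and in 21.7% of all 27025 promoters of the table. CCAAT lay in 17 of 19 G2-M promoters (89.5%) and in 8 of 13 S promoters (61.5%), against 41.1% of all. The E2F site lay in 6 of 13 S promoters (46.2%: Cdc6, Cdt1, Mcm3, Mcm5, Mcm6 and Mcm7) and in 1 of 19 G2-M promoters (Cdk1), against 2.6% of all. These are counts of letters, not of bound sites.

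Values below are the authors' normalized signal per gene, which is not a whole count, and each table was normalized on its own. A change is the log2 fold change of mutants over wild types on log2(signal + 2) ± its standard error, and a gene is said to rise or fall when its p, adjusted by Benjamini-Hochberg over all genes of the table, is below 0.05 in limma. Signal summed to 25.5 to 42.7 M per library over 16125 to 17683 genes above 0. Smad4 signal lay at 1676 to 1916 in Smad4 mutants, against 5258 to 5903 in their wild types, and at 1817 to 3030 in IgG mutants, against 5625 to 5975 in IgG wild types. Eng lay at 8613 to 11508 in Eng mutants, against 60151 to 70402 in wild types. Acvrl1 lay at 12441 to 15809 in Alk1 mutants, against 14197 to 16755 in wild types. A whole-gene value of Acvrl1 cannot check the Alk1 genotypes, since the deleted part of the gene is not named in the labels. Endothelial markers were at 1.23 to 1.36% of the library sum in every group, as the median of its libraries. Of these 8 markers, 2 rose in Smad4, 2 rose and 1 fell in Alk1, 3 fell in Eng, and 1 rose and 1 fell in IgG mutants.

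Cell cycle genes were higher in all 3 mutants and in the IgG cohort, most of all in Alk1 mutants. In Smad4 mutants 33 members rose and 2 fell, where 17.2% of all genes tested rose and 15.8% fell. Alk1 mutants raised 45 members and lowered 1, beside 17.5 and 15.7% of all genes. In Eng mutants 44 rose and none fell, beside 12.4 and 9.08% of all genes. Under IgG, Smad4 mutants raised 39 and lowered 2, beside 9.67 and 8.12% of all genes. The median member changed by 0.41 in Smad4, 0.96 in Alk1, 0.66 in Eng and 0.55 in IgG-treated Smad4 mutants, while the median of all genes tested was -0.01 in each untreated model and 0.00 under IgG. A set of 31 members rose in all 4 comparisons, and the share of all genes that did so was not counted. Both Smad4 comparisons are among the 4. Of all genes called, 52.1% were higher in Smad4 and 52.7% in Alk1 mutants, against 37.2 and 41.1% after scaling to library totals.

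Mutant and wild type libraries did not overlap for 31 members in the Smad4 model (63.3%, beside 22.8% of all genes tested), for 43 in the Alk1 model (87.8%, beside 24.5%) and for 42 in the Eng model (85.7%, beside 16.5%). In the IgG cohort they did not overlap for 46 members (93.9%), where with 3 libraries a side 41.0% of all genes do not overlap.

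**Figure D1:**
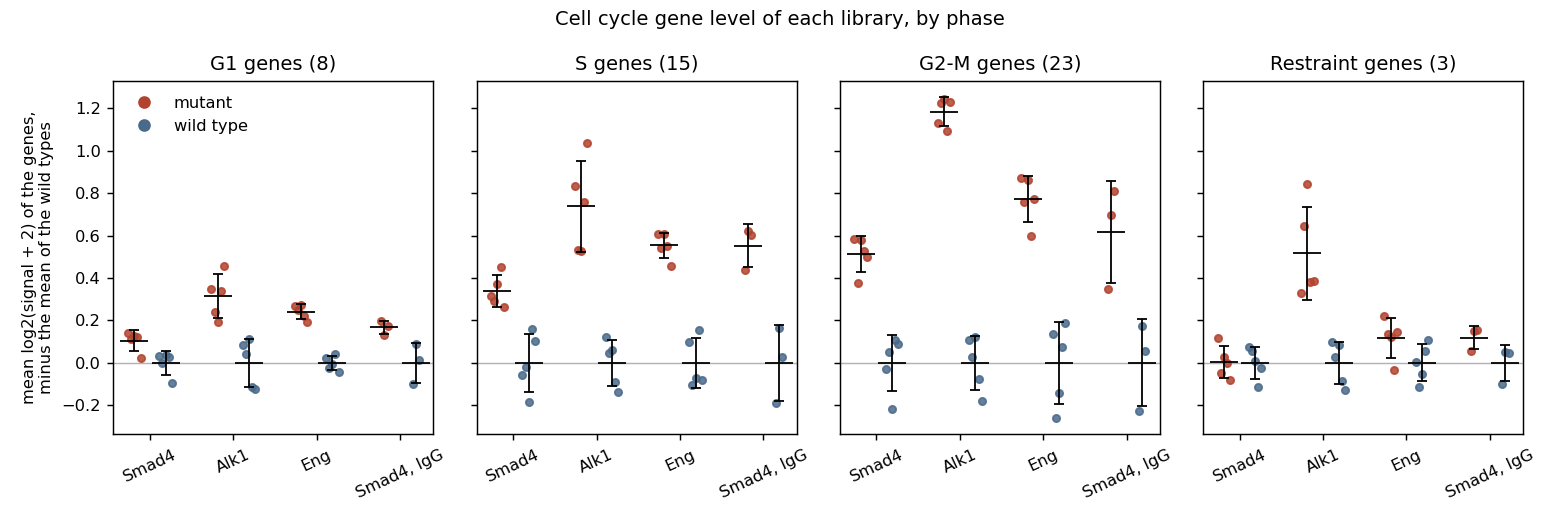
Mean log2(signal + 2) over the genes of a phase, per library, minus the mean of the wild types of the same table; points are libraries, bars the mean and SD (5 libraries a group, 3 in the IgG cohort). The S and G2-M levels of every mutant library lie above every wild type of the same table, the G2-M level most of all in Alk1 mutants (1.18 above wild type).

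Levels over each phase are given next, and the differences between phases were not tested. The G2-M level of a library, the mean log2 signal over the 23 genes, was 0.51 higher in Smad4 mutants, 1.18 in Alk1, 0.77 in Eng and 0.62 in IgG-treated Smad4 mutants than in their wild types, with no overlap between groups in any of them. For the 15 S genes the differences were 0.34, 0.74, 0.55 and 0.55, again without overlap. The 8 G1 genes differed by 0.10 in the Smad4 model, where the groups overlapped. They differed by 0.32, 0.24 and 0.17 in the Alk1, Eng and IgG cohorts, where the groups did not. The 3 brakes on G1 differed by 0.52 in the Alk1 and 0.12 in the IgG cohort, without overlap. Their differences of 0.00 in the Smad4 and 0.12 in the Eng model came with overlap. Some column names carry an L number, called a library code here, and the labels do not say what it stands for. In the Alk1 table, the 2 mutants and 2 wild types of code L219 differed by 1.01 in S and 0.52 in G1 level. The differences were 0.56 and 0.18 among the 3 and 3 without a code. The Alk1 G2-M difference was 1.29 with the code and 1.11 without it. The Smad4 model ran the other way, with differences of 0.42 in G2-M and 0.23 in S level in the 2 and 2 libraries of code L146, against 0.58 and 0.41 in the 3 and 3 without a code. In the Eng table the G2-M difference was 0.58 in the 1 pair of code L216 and 0.82 in the 4 and 4 libraries of code L210.

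Libraries also differed in what other cells they held, and parts of the marker lists passed the test. In Smad4 mutants 4 of 8 pericyte, 5 of 6 neuronal, 4 of 7 oligodendrocyte lineage, 2 of 5 tested granule neuron progenitor and 3 of 4 tested erythroid markers fell, and none of them rose. Of the other lists, 2 of 3 tested smooth muscle and 1 of 6 astrocyte markers fell there, and no microglial or leukocyte marker was called. In IgG mutants 4 of 8 pericyte, 4 of 6 microglial, 2 of 7 oligodendrocyte lineage, 2 of 5 tested granule neuron progenitor and 1 of 6 neuronal markers fell. So did 1 of 6 astrocyte and 1 of 3 tested smooth muscle markers there. Granule neuron progenitors, which divide in the cerebellum at this age, had a summed marker signal of 2351 to 4471 in Smad4 mutants, against 4958 to 6962 in wild types, and of 3591 to 5537 in IgG mutants, against 6654 to 7469 in IgG wild types. It was 3533 to 4881 in Alk1 mutants, against 4615 to 5934 in wild types, and 5313 to 7385 in Eng mutants, against 5682 to 7056 in wild types. Atoh1, which defines these progenitors, was at 0 in at least 1 library of both Alk1 groups, of the IgG mutants and of the LC10 mutants. In Alk1 mutants 4 of 4 tested erythroid and 2 of 3 tested smooth muscle markers fell, while 2 of 4 tested leukocyte markers rose. Of the other lists, 1 of 8 pericyte, 1 of 6 neuronal and 1 of 4 tested granule neuron progenitor markers fell there. In Eng mutants 3 of 5 tested erythroid markers fell, and no other marker outside the endothelial list was called. Leukocyte markers summed to 452 to 563 in Alk1 mutants, against 238 to 400 in wild types, and smooth muscle markers to 658 to 1305, against 1569 to 2054 in wild types. Erythroid signal was 16028 to 23786 in Alk1 mutants, against 40556 to 67902 in wild types. The part of these differences in the cycle gene results was not tested beyond the fit below, and in a bulk sample fewer cells of a type and less RNA per cell cannot be told apart. With the level of glial and neuronal markers as a term of the model, 28 members rose in Smad4 mutants, 45 in Alk1, 44 in Eng and 15 in the IgG cohort. Calls over all genes, in either direction, were then 2284, 4660, 3179 and 591, against 4620, 4530, 3082 and 2480 without the term.

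**Figure D2:**
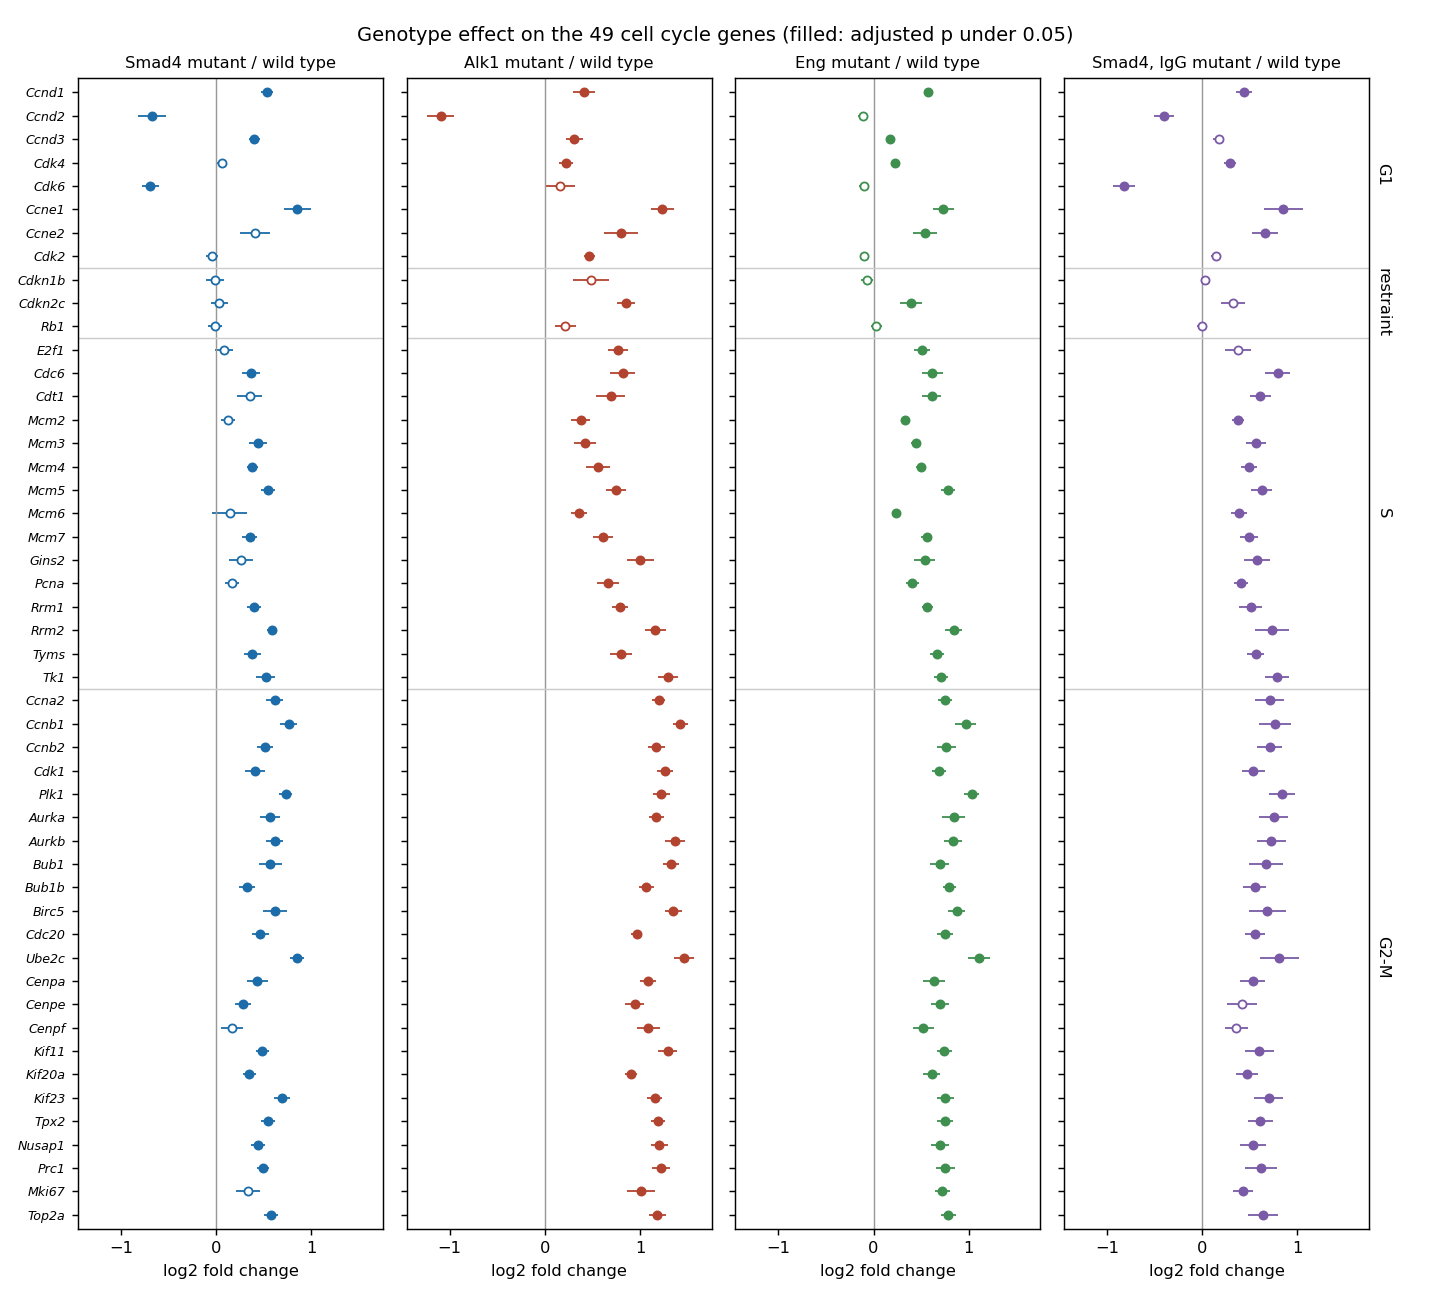
Log2 fold change of mutants over wild types for each of the 49 genes (rows, grouped by phase) in the 4 comparisons (panels); bars are standard errors and filled points passed an adjusted p of 0.05. Ube2c has the largest G2-M change in the Smad4, Alk1 and Eng panels (0.85, 1.46 and 1.10), and Ccnd2 and Cdk6 are the points furthest below 0.

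The D cyclins start the cycle, and they did not move as a group. Ccnd1 (cyclin D1, chromosome 7, 144929931 to 144939925) had by far the highest signal per kilobase of exon of all members, 2640 ± 165 in Smad4 wild types (SD, n = 5), ahead of Pcna at 1436 ± 109 and Cdk4 at 1344 ± 37.8. Ccnd1 had 19476, 17449, 16602, 18692 and 17661 in Smad4 mutants, against 12105, 12718, 13461, 12508 and 11357 in Smad4 wild types (0.53 ± 0.06, adjusted p = 9.08e-05). Ccnd1 had 22971, 18094, 16216, 23719 and 24934 in Alk1 mutants, against 15113, 15262, 18052, 15532 and 14680 in Alk1 wild types (0.41 ± 0.12, adjusted p = 0.0171). Ccnd1 had 25282, 24651, 25596, 25494 and 26614 in Eng mutants, against 16536, 18128, 18189, 16439 and 16913 in Eng wild types (0.57 ± 0.04, adjusted p = 2.42e-06). It rose in all 3, without overlap in the Smad4 and Eng models. In the Alk1 model mutant library 3 lay inside the wild type range, and the call was lost under library totals, under quantile normalization and in the libraries without a code. Ccnd1 had 19036, 17452 and 20945 in IgG mutants, against 12978, 14969 and 14391 in IgG wild types (0.44 ± 0.08, adjusted p = 0.0156). Under IgG the groups again stood apart.

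Cyclin D2 went the other way. Ccnd2 lies on chromosome 6 (127125162 to 127152193). Ccnd2 had 3652, 3003, 3675, 2649 and 2330 in Smad4 mutants, against 5559, 4966, 5792, 3938 and 4087 in Smad4 wild types (-0.67 ± 0.15, adjusted p = 0.00619). Ccnd2 had 3121, 2128, 1721, 2489 and 2451 in Alk1 mutants, against 5065, 5296, 5921, 4201 and 4654 in Alk1 wild types (-1.09 ± 0.14, adjusted p = 0.000116). Ccnd2 had 6782, 7218, 6522, 5815 and 6219 in Eng mutants, against 6614, 7133, 7012, 7258 and 7058 in Eng wild types (-0.11 ± 0.05, adjusted p = 0.167). It fell in Smad4 and Alk1 mutants, with every mutant library below every wild type, while the Eng groups overlapped and the Eng change did not pass the test. Ccnd2 had 4370, 3442 and 3216 in IgG mutants, against 4621, 4945 and 4886 in IgG wild types (-0.40 ± 0.11, adjusted p = 0.0407). The fall under IgG passed narrowly and was no longer called when any of 5 libraries (every one but mutant 1) was left out. With the level of glial and neuronal markers as a term, the Smad4 change was -0.31 (adjusted p = 0.118).

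Ccnd3, the remaining D cyclin, rose in the 3 untreated models. Ccnd3 had 5275, 6049, 5561, 6288 and 5914 in Smad4 mutants, against 4414, 4140, 4491, 4548 and 4418 in Smad4 wild types (0.40 ± 0.05, adjusted p = 0.000329). Ccnd3 had 5073, 6829, 6578, 6705 and 6325 in Alk1 mutants, against 4706, 5639, 5016, 5085 and 4869 in Alk1 wild types (0.31 ± 0.09, adjusted p = 0.0148). Ccnd3 had 7684, 7776, 7994, 8272 and 7759 in Eng mutants, against 6837, 7231, 6783, 6812 and 7399 in Eng wild types (0.17 ± 0.04, adjusted p = 0.00455). In the Alk1 model mutant 1 was the low library and the only one within the wild type range, and the call was lost after quantile normalization and in the libraries without a code. The Eng call was lost in the joint fit of the 30 libraries. Ccnd3 had 6887, 6262 and 6832 in IgG mutants, against 6189, 5978 and 5573 in IgG wild types (0.17 ± 0.06, adjusted p = 0.085). The IgG libraries did not overlap, but the change did not pass the test.

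The partners of the D cyclins split as well. Cdk4 rose in all but the untreated Smad4 model. Cdk4 had 4451, 4281, 4825, 4842 and 4353 in Smad4 mutants, against 4372, 4340, 4177, 4487 and 4462 in Smad4 wild types (0.06 ± 0.05, adjusted p = 0.382). Cdk4 had 5565, 4959, 4940, 5393 and 6309 in Alk1 mutants, against 4759, 4775, 4841, 4398 and 4387 in Alk1 wild types (0.23 ± 0.07, adjusted p = 0.0324). Cdk4 had 6878, 6332, 6411, 6233 and 6159 in Eng mutants, against 5755, 5228, 5222, 5678 and 5469 in Eng wild types (0.23 ± 0.04, adjusted p = 0.00193). The Smad4 groups overlapped, and in the Alk1 model the call was lost under 10 of 21 other settings, 6 of which left out 1 library (mutant 1, 4 or 5, wild type 1, 4 or 5). Cdk4 had 4770, 4896 and 4818 in IgG mutants, against 3649, 4020 and 4176 in IgG wild types (0.29 ± 0.06, adjusted p = 0.0186). All 3 IgG mutants stood above all 3 wild types.

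Cdk6, the other D-cyclin kinase (chromosome 5, 3341485 to 3531008), fell in Smad4 mutants with and without IgG. Cdk6 had 774, 717, 784, 690 and 665 in Smad4 mutants, against 1241, 1350, 1227, 1108 and 967 in Smad4 wild types (-0.69 ± 0.09, adjusted p = 0.000273). Cdk6 had 854, 657 and 655 in IgG mutants, against 1362, 1236 and 1195 in IgG wild types (-0.82 ± 0.12, adjusted p = 0.00753). In both Smad4 comparisons every mutant lay below every wild type. Cdk6 had 1139, 1495, 1810, 1190 and 1149 in Alk1 mutants, against 1371, 1281, 1405, 962 and 1009 in Alk1 wild types (0.16 ± 0.15, adjusted p = 0.441). Cdk6 had 1483, 1438, 1463, 1437 and 1646 in Eng mutants, against 1742, 1658, 1582, 1562 and 1479 in Eng wild types (-0.10 ± 0.05, adjusted p = 0.211). The Alk1 and the Eng groups overlapped, and neither change passed the test.

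Cyclin E1, which carries cells into S phase with Cdk2, rose in every comparison and had the largest rise of the G1 genes. Ccne1 lies on chromosome 7 (38097984 to 38107534). Ccne1 had 363, 356, 386, 414 and 415 in Smad4 mutants, against 182, 197, 174, 293 and 240 in Smad4 wild types (0.85 ± 0.14, adjusted p = 0.00132). Ccne1 had 540, 514, 478, 576 and 752 in Alk1 mutants, against 258, 254, 207, 238 and 240 in Alk1 wild types (1.24 ± 0.12, adjusted p = 1.74e-05). Ccne1 had 424, 456, 511, 471 and 396 in Eng mutants, against 270, 235, 247, 335 and 272 in Eng wild types (0.73 ± 0.11, adjusted p = 0.000494). No mutant library overlapped a wild type one in any of the 3 models, and Alk1 mutant 5 was the highest of all. Ccne1 had 352, 424 and 498 in IgG mutants, against 177, 282 and 251 in IgG wild types (0.85 ± 0.20, adjusted p = 0.0295). The IgG groups did not overlap either, mutant 1 being the lowest mutant.

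Ccne2, the other E cyclin, rose in Alk1, Eng and IgG mutants. Ccne2 had 903, 598, 591, 708 and 930 in Alk1 mutants, against 523, 390, 546, 356 and 327 in Alk1 wild types (0.80 ± 0.18, adjusted p = 0.00451). Ccne2 had 659, 642, 661, 607 and 501 in Eng mutants, against 512, 388, 474, 430 and 321 in Eng wild types (0.54 ± 0.12, adjusted p = 0.00888). Ccne2 had 585, 683 and 625 in IgG mutants, against 328, 462 and 414 in IgG wild types (0.66 ± 0.14, adjusted p = 0.0208). Eng mutant 5 lay inside the wild type range, while the Alk1 and IgG groups stood apart. The Alk1 call was lost in the libraries without a code. Ccne2 had 522, 606, 417, 425 and 368 in Smad4 mutants, against 431, 330, 382, 334 and 274 in Smad4 wild types (0.41 ± 0.16, adjusted p = 0.0642). The Smad4 groups overlapped. Cdk2, their kinase (chromosome 10, 128697939 to 128705031), rose in the Alk1 model alone among the 4 comparisons. Cdk2 had 3497, 3647, 3613, 3674 and 3677 in Alk1 mutants, against 2881, 2610, 2579, 2534 and 2507 in Alk1 wild types (0.47 ± 0.05, adjusted p = 5.81e-05). Its changes of -0.04 ± 0.06 in Smad4, -0.10 ± 0.04 in Eng and 0.14 ± 0.05 in IgG mutants did not pass the test.

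**Figure D3:**
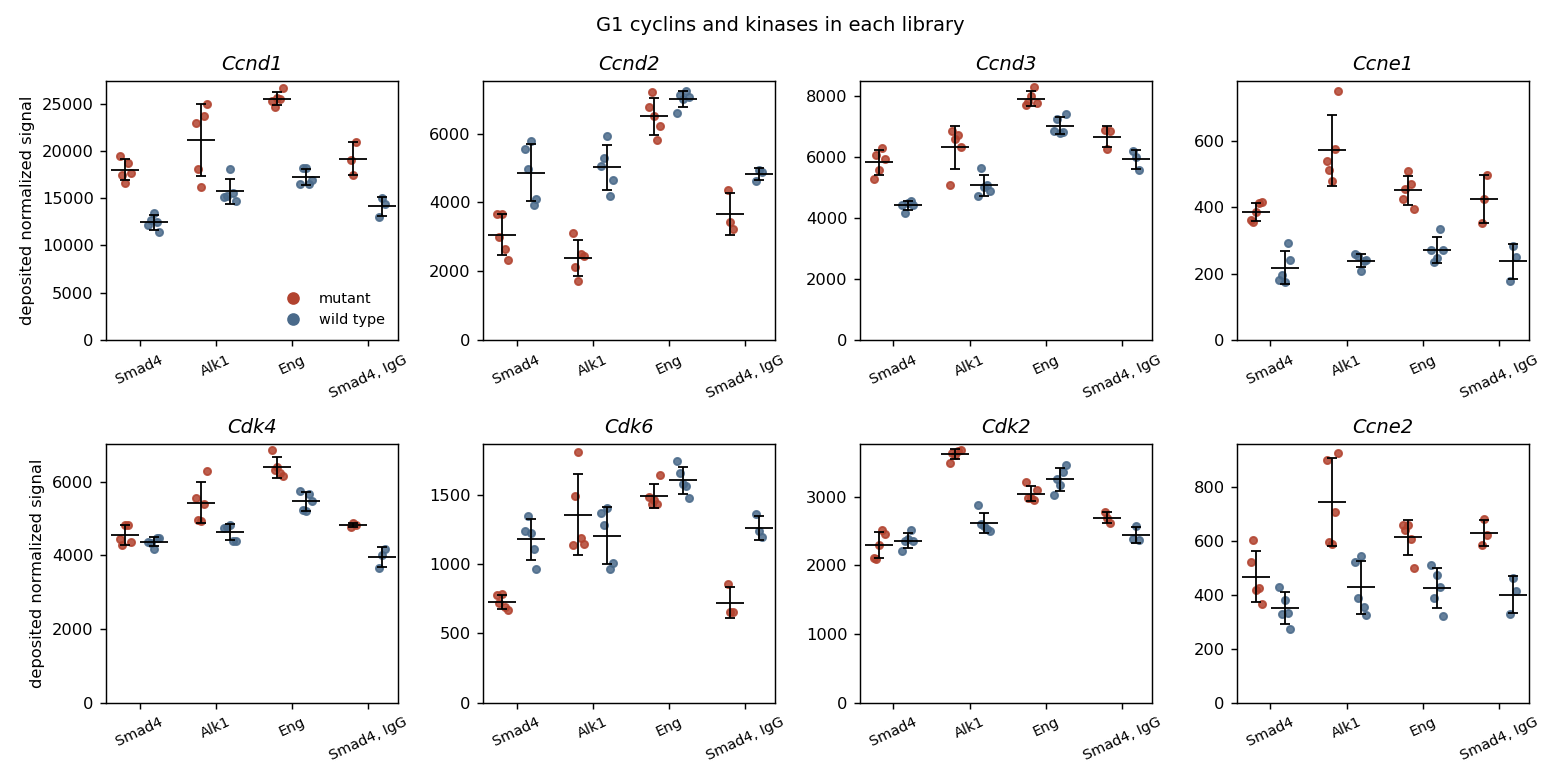
Deposited normalized signal of the 8 G1 cyclins and kinases in each library, mutants left of wild types in each cohort; bars are the mean and SD (5 libraries a group, 3 in the IgG cohort). Ccnd1 and Ccne1 lie higher in mutants throughout, Ccnd2 lies lower in Smad4 and Alk1 mutants, and Cdk6 lies lower in both Smad4-deleted cohorts (665 to 784 in Smad4 mutants, 967 to 1350 in wild types).

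Of the 3 G1 brakes, p18 (Cdkn2c) moved and Rb1 and p27 (Cdkn1b) were not called in any comparison. Cdkn2c binds Cdk4 and Cdk6 (chromosome 4, 109660876 to 109667189). Cdkn2c had 1180, 1445, 1427, 1532 and 1798 in Alk1 mutants, against 839, 780, 823, 798 and 809 in Alk1 wild types (0.85 ± 0.10, adjusted p = 4.19e-05). Cdkn2c had 1205, 1091, 1098, 902 and 1030 in Eng mutants, against 897, 680, 653, 902 and 948 in Eng wild types (0.39 ± 0.12, adjusted p = 0.0287). The Alk1 groups were far apart, whereas Eng mutant 4 lay within the wild type range and the Eng call was lost on leaving out any of 5 single libraries (mutants 1, 2 and 3, wild types 2 and 3). Cdkn2c had 880, 722, 853, 893 and 803 in Smad4 mutants, against 860, 822, 672, 818 and 891 in Smad4 wild types (0.03 ± 0.09, adjusted p = 0.8). Cdkn2c had 933, 1105 and 1097 in IgG mutants, against 696, 907 and 914 in IgG wild types (0.32 ± 0.12, adjusted p = 0.105). Neither of the Smad4 comparisons passed the test.

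Cdkn1b was uneven only within the Alk1 mutants. Cdkn1b had 2473, 3479, 4962, 2466 and 2111 in Alk1 mutants, against 2192, 2179, 2409, 1900 and 1894 in Alk1 wild types (0.48 ± 0.19, adjusted p = 0.0733). Mutants 2 and 3 were high and the rest lay near the wild types. Cdkn1b had 2139, 1902, 1586, 1702 and 1660 in Smad4 mutants, against 1854, 1933, 2056, 1582 and 1636 in Smad4 wild types (-0.01 ± 0.10, adjusted p = 0.932). Cdkn1b had 2088, 1953, 1777, 1764 and 1873 in Eng mutants, against 1901, 1838, 1996, 1949 and 2223 in Eng wild types (-0.07 ± 0.06, adjusted p = 0.494). Cdkn1b had 2094, 2009 and 2067 in IgG mutants, against 1991, 2024 and 2008 in IgG wild types (0.03 ± 0.05, adjusted p = 0.636). In these 3 comparisons mutant and wild type ranges overlapped.

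Rb1, the target of the G1 kinases, passed the test in no comparison. Rb1 had 1724, 1678, 1998, 1684 and 1622 in Smad4 mutants, against 1868, 1798, 1885, 1560 and 1662 in Smad4 wild types (-0.01 ± 0.07, adjusted p = 0.921). Rb1 had 1812, 2037, 2185, 1567 and 1577 in Alk1 mutants, against 1779, 1666, 1615, 1476 and 1343 in Alk1 wild types (0.21 ± 0.11, adjusted p = 0.15). Rb1 had 2152, 2133, 2255, 1994 and 2391 in Eng mutants, against 2020, 2150, 2331, 2168 and 2027 in Eng wild types (0.03 ± 0.05, adjusted p = 0.758). All 3 pairs of groups overlapped, with Smad4 mutant 3 standing above its group. Rb1 had 1797, 1922 and 1895 in IgG mutants, against 1831, 1893 and 1882 in IgG wild types (0.00 ± 0.05, adjusted p = 0.984). The IgG values overlapped too.

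All 15 replication genes passed the test in Alk1 and Eng mutants, 14 of 15 under IgG and 9 of 15 in untreated Smad4 mutants. Their median change was 0.36 in Smad4 (range 0.08 to 0.59), 0.75 in Alk1 (0.36 to 1.30), 0.56 in Eng (0.23 to 0.84) and 0.56 in IgG-treated Smad4 mutants (0.37 to 0.79). Not called were E2f1, Cdt1, Mcm2, Mcm6, Gins2 and Pcna in the Smad4 model and E2f1 under IgG. No S gene fell in any comparison. The Alk1 count was 12 under library totals, 12 after quantile normalization and 10 in the libraries without a code, with Mcm2, Mcm3 and Mcm6 lost in each of these settings and Cdt1 and Mcm4 lost in the last. In the Smad4 model Cdc6 was lost under library totals and in the coded and the uncoded libraries taken alone, Mcm7 and Tyms in the coded libraries, and Mcm3 and Tyms with the level of glial and neuronal markers as a term. The Eng call of Mcm6 was lost in the joint fit.

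Genes of nucleotide supply were among the most changed of the class. Rrm2, the cell cycle-bound subunit of ribonucleotide reductase (chromosome 12, 24708241 to 24714146), rose in all 4 comparisons. Rrm2 had 1955, 1960, 1967, 1883 and 1701 in Smad4 mutants, against 1306, 1251, 1185, 1267 and 1289 in Smad4 wild types (0.59 ± 0.06, adjusted p = 2.43e-05). Rrm2 had 3421, 3174, 2978, 3527 and 4404 in Alk1 mutants, against 1867, 1475, 1672, 1420 and 1377 in Alk1 wild types (1.16 ± 0.11, adjusted p = 1.32e-05). Rrm2 had 3156, 2785, 3075, 2639 and 2319 in Eng mutants, against 1657, 1383, 1446, 1814 and 1491 in Eng wild types (0.84 ± 0.09, adjusted p = 6.75e-05). The mutants stood clear of the wild types in each model, with Alk1 mutant 5 the highest library. Rrm2 had 1837, 2413 and 2470 in IgG mutants, against 1016, 1581 and 1478 in IgG wild types (0.73 ± 0.18, adjusted p = 0.0324). So did the IgG libraries, though mutant 1 was closest to the wild types.

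Tk1, thymidine kinase (chromosome 11, 117815526 to 117826092), had the largest S-phase change in the Alk1 model. Tk1 had 1212, 1045, 1229, 1285 and 1125 in Smad4 mutants, against 777, 806, 670, 936 and 951 in Smad4 wild types (0.52 ± 0.10, adjusted p = 0.00316). Tk1 had 1890, 1948, 1778, 2148 and 2663 in Alk1 mutants, against 894, 869, 869, 817 and 754 in Alk1 wild types (1.30 ± 0.10, adjusted p = 3.1e-06). Tk1 had 1500, 1494, 1610, 1302 and 1405 in Eng mutants, against 902, 781, 868, 1015 and 899 in Eng wild types (0.71 ± 0.07, adjusted p = 4.77e-05). Its Alk1 fold change was 2.46, and no groups overlapped. Tk1 had 1306, 1415 and 1528 in IgG mutants, against 696, 979 and 798 in IgG wild types (0.79 ± 0.13, adjusted p = 0.0101). Every IgG mutant was again above every IgG wild type.

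Rrm1, the large reductase subunit, had one of the 3 highest signals of the class, before any correction for length. Rrm1 had 4484, 4244, 4296, 4794 and 4573 in Smad4 mutants, against 3226, 3489, 2921, 3766 and 3648 in Smad4 wild types (0.40 ± 0.07, adjusted p = 0.00183). Rrm1 had 6635, 5920, 6316, 6756 and 7649 in Alk1 mutants, against 4090, 3566, 4248, 3861 and 3472 in Alk1 wild types (0.79 ± 0.08, adjusted p = 1.91e-05). Rrm1 had 6903, 6125, 6664, 5962 and 5901 in Eng mutants, against 4364, 3845, 4134, 4507 and 4478 in Eng wild types (0.56 ± 0.06, adjusted p = 3.78e-05). It rose in all 3 without overlap. Rrm1 had 3686, 4545 and 4825 in IgG mutants, against 2640, 3443 and 3088 in IgG wild types (0.51 ± 0.12, adjusted p = 0.0318). The lowest IgG mutant lay just above the highest wild type. Tyms, thymidylate synthase, rose by 0.38 ± 0.09, 0.80 ± 0.11, 0.66 ± 0.07 and 0.56 ± 0.09 in Smad4, Alk1, Eng and IgG-treated Smad4 mutants.

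Among the MCM helicase subunits, Mcm5 (chromosome 8, 75109569 to 75128439) changed most. Mcm5 had 2766, 3134, 2937, 3049 and 2816 in Smad4 mutants, against 1858, 2235, 1741, 2225 and 2044 in Smad4 wild types (0.55 ± 0.08, adjusted p = 0.000364). Mcm5 had 4351, 4032, 4353, 4223 and 3887 in Eng mutants, against 2731, 2262, 2251, 2736 and 2191 in Eng wild types (0.78 ± 0.07, adjusted p = 1.46e-05). Both models were fully separated. Mcm5 rose by 0.75 ± 0.11 in Alk1 mutants and by 0.62 ± 0.11 under IgG. Mcm3, Mcm4 and Mcm7 also rose in all 4 comparisons (0.35 to 0.61), and Mcm2 rose in all but the Smad4 model.

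Mcm6 was the least moved helicase gene in the Alk1 and Eng models. Mcm6 had 6650, 5357, 5396, 6500 and 7107 in Alk1 mutants, against 4500, 4915, 5275, 4677 and 4686 in Alk1 wild types (0.36 ± 0.09, adjusted p = 0.00737). Mcm6 had 6663, 6646, 6592, 6684 and 6890 in Eng mutants, against 5658, 5553, 5452, 5462 and 6398 in Eng wild types (0.23 ± 0.04, adjusted p = 0.00248). Mcm6 had 3807, 4087 and 3902 in IgG mutants, against 2659, 2990 and 3415 in IgG wild types (0.39 ± 0.09, adjusted p = 0.0267). Each of these passed without overlap, and Eng wild type 5 was the high wild type. Mcm6 had 4614, 3915, 3021, 4547 and 2773 in Smad4 mutants, against 2698, 3032, 2778, 4484 and 4121 in Smad4 wild types (0.14 ± 0.18, adjusted p = 0.574). In the Smad4 model both groups were split, with mutants 3 and 5 and wild types 1 to 3 low.

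Pcna, the sliding clamp of the DNA polymerases, rose in all but the Smad4 model. Pcna had 5827, 4743, 5238, 6690 and 7650 in Alk1 mutants, against 3847, 3652, 3749, 3971 and 3568 in Alk1 wild types (0.66 ± 0.11, adjusted p = 0.000799). Pcna had 5513, 5088, 6028, 5625 and 5063 in Eng mutants, against 4625, 3888, 3900, 4415 and 3769 in Eng wild types (0.41 ± 0.07, adjusted p = 0.000961). Pcna had 4316, 4682 and 4330 in IgG mutants, against 3105, 3711 and 3278 in IgG wild types (0.40 ± 0.07, adjusted p = 0.0145). Those groups did not overlap. Pcna had 3857, 3756, 3511, 4441 and 3771 in Smad4 mutants, against 3263, 3285, 3244, 3830 and 3604 in Smad4 wild types (0.17 ± 0.07, adjusted p = 0.0923). There the ranges met. Of the licensing factors, Cdc6 rose in all 4 and had the largest S-phase change under IgG. Cdc6 had 466, 544 and 521 in IgG mutants, against 247, 322 and 318 in IgG wild types (0.79 ± 0.13, adjusted p = 0.0118). Its IgG libraries stood apart. Gins2, a subunit of the CMG helicase, rose most in Alk1 mutants. Gins2 had 537, 430, 481, 502 and 641 in Alk1 mutants, against 335, 280, 243, 201 and 236 in Alk1 wild types (1.00 ± 0.15, adjusted p = 0.000276). E2f1 rose by 0.77 ± 0.10 in Alk1 and 0.51 ± 0.09 in Eng mutants, and Cdt1 by 0.69 ± 0.15 in Alk1, 0.61 ± 0.10 in Eng and 0.61 ± 0.11 under IgG.

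The mitotic genes had the largest median change of the phases in all 4 comparisons. All 23 rose in Alk1 and in Eng mutants, and 21 rose in Smad4 mutants with and without IgG. Their median change was 0.51 in Smad4 (range 0.17 to 0.85), 1.19 in Alk1 (0.91 to 1.46), 0.75 in Eng (0.52 to 1.10) and 0.62 under IgG (0.36 to 0.84). Cenpf and Mki67 were not called in the Smad4 model, and Cenpe and Cenpf under IgG. Every G2-M gene changed more in Alk1 mutants than in the other 2 untreated mutants, and least in Smad4 mutants.

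Ube2c, the ubiquitin-conjugating enzyme that feeds the anaphase-promoting complex (chromosome 2, 164769898 to 164778822), led in the 3 untreated models. Ube2c had 1176, 1041, 1106, 1241 and 1151 in Smad4 mutants, against 661, 683, 554, 629 and 638 in Smad4 wild types (0.85 ± 0.07, adjusted p = 1.3e-05). Ube2c had 1824, 1919, 1943, 1588 and 1790 in Alk1 mutants, against 805, 616, 737, 574 and 575 in Alk1 wild types (1.46 ± 0.10, adjusted p = 1.51e-06). Ube2c had 1421, 1402, 1439, 1151 and 1328 in Eng mutants, against 712, 486, 550, 648 and 767 in Eng wild types (1.10 ± 0.12, adjusted p = 5.23e-05). These are 1.8-, 2.75- and 2.15-fold rises, with mutants and wild types fully apart. Ube2c had 788, 1214 and 1398 in IgG mutants, against 542, 647 and 705 in IgG wild types (0.81 ± 0.21, adjusted p = 0.0354). IgG mutant 1 was the low mutant but still above the wild types.

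Ccnb1, cyclin B1, is the partner of Cdk1 that drives entry into mitosis (chromosome 13, 100778650 to 100786570). Ccnb1 had 1443, 1370, 1298, 1570 and 1432 in Smad4 mutants, against 844, 833, 694, 891 and 950 in Smad4 wild types (0.76 ± 0.09, adjusted p = 9.13e-05). Ccnb1 had 2151, 2361, 2523, 2139 and 2425 in Alk1 mutants, against 933, 845, 970, 811 and 771 in Alk1 wild types (1.42 ± 0.08, adjusted p = 4.92e-07). Ccnb1 had 1603, 1573, 1687, 1368 and 1555 in Eng mutants, against 888, 628, 683, 882 and 936 in Eng wild types (0.97 ± 0.11, adjusted p = 8.11e-05). In each model the lowest mutant exceeded the highest wild type. Ccnb1 had 1092, 1518 and 1654 in IgG mutants, against 710, 963 and 818 in IgG wild types (0.76 ± 0.17, adjusted p = 0.0247). The IgG groups kept apart as well. Its partner Cdk1 rose by 0.41 ± 0.11 in Smad4, 1.26 ± 0.08 in Alk1, 0.69 ± 0.07 in Eng and 0.53 ± 0.12 in IgG mutants, and Ccnb2 by 0.51 ± 0.08, 1.17 ± 0.09, 0.76 ± 0.10 and 0.71 ± 0.13.

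Plk1, the polo-like mitotic kinase (chromosome 7, 122159439 to 122169873), was among the 3 most changed G2-M genes in the Smad4 and Eng models and changed most under IgG. Plk1 had 1111, 1079, 1253, 1130 and 1166 in Smad4 mutants, against 650, 733, 620, 714 and 744 in Smad4 wild types (0.73 ± 0.07, adjusted p = 2.89e-05). Plk1 had 1573, 1554, 1631, 1291 and 1464 in Eng mutants, against 830, 668, 657, 735 and 786 in Eng wild types (1.03 ± 0.08, adjusted p = 5.59e-06). Plk1 had 1047, 1407 and 1300 in IgG mutants, against 622, 805 and 669 in IgG wild types (0.84 ± 0.13, adjusted p = 0.0103). No group overlapped. Plk1 rose by 1.22 ± 0.09 in Alk1 mutants. Of the Aurora kinases, Aurkb, of the chromosomal passenger complex, was among the 3 most changed in Alk1 mutants. Aurkb had 1771, 2544, 2146, 2096 and 2388 in Alk1 mutants, against 838, 973, 847, 821 and 741 in Alk1 wild types (1.37 ± 0.10, adjusted p = 2.1e-06). Its partner Birc5 (survivin) rose by 1.35 ± 0.09 and Aurka by 1.17 ± 0.08 there.

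Ccna2, cyclin A2, bridges S phase and mitosis. Ccna2 had 3099, 2839, 3644, 3187 and 3093 in Smad4 mutants, against 1996, 2144, 1716, 2275 and 2242 in Smad4 wild types (0.61 ± 0.09, adjusted p = 0.000435). Ccna2 had 5325, 5541, 5338, 5204 and 5778 in Alk1 mutants, against 2377, 2612, 2553, 2251 and 2103 in Alk1 wild types (1.20 ± 0.07, adjusted p = 5e-07). Ccna2 had 4042, 3958, 3897, 3394 and 3799 in Eng mutants, against 2468, 1947, 2077, 2388 and 2516 in Eng wild types (0.75 ± 0.07, adjusted p = 3.81e-05). Alk1 mutants were tight, at 5204 to 5778, and every mutant lay above every wild type in the 3 models. Ccna2 had 2793, 3683 and 4142 in IgG mutants, against 1816, 2405 and 2237 in IgG wild types (0.71 ± 0.16, adjusted p = 0.0241). IgG mutant 1 was again the lowest mutant.

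Top2a, the topoisomerase that untangles chromosomes, had one of the highest signals of the class. Top2a had 8352, 7632, 9147, 8362 and 7668 in Smad4 mutants, against 5553, 5704, 4801, 6063 and 5521 in Smad4 wild types (0.58 ± 0.07, adjusted p = 0.000158). Top2a had 14388, 13510, 14743, 14024 and 15143 in Alk1 mutants, against 6981, 6474, 7543, 5562 and 5366 in Alk1 wild types (1.18 ± 0.09, adjusted p = 2.62e-06). Top2a had 13239, 11463, 13034, 10698 and 11712 in Eng mutants, against 7382, 5934, 6467, 7566 and 7648 in Eng wild types (0.78 ± 0.08, adjusted p = 4.3e-05). All were without overlap. Top2a had 7045, 9061 and 9414 in IgG mutants, against 4359, 6302 and 5812 in IgG wild types (0.64 ± 0.16, adjusted p = 0.0318). The IgG mutants also stood above their wild types.

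Mki67 (Ki-67, the proliferation marker of histology; chromosome 7, 135689784 to 135716361) had the highest signal of the class and was not the clearest of its genes. Mki67 had 10369, 8732, 12561, 7959 and 8180 in Smad4 mutants, against 7821, 8906, 6737, 7297 and 6729 in Smad4 wild types (0.34 ± 0.13, adjusted p = 0.061). Mki67 had 19322, 18870, 17385, 13595 and 15392 in Alk1 mutants, against 10328, 9311, 9820, 6513 and 6541 in Alk1 wild types (1.01 ± 0.15, adjusted p = 0.000314). Mki67 had 15492, 13458, 15296, 13007 and 14987 in Eng mutants, against 9847, 7564, 7869, 9452 and 9242 in Eng wild types (0.72 ± 0.08, adjusted p = 6.75e-05). In the Smad4 model mutants 2, 4 and 5 overlapped the wild types, whereas the Alk1 and Eng groups did not overlap. Mki67 had 7292, 8763 and 8837 in IgG mutants, against 5355, 6744 and 6456 in IgG wild types (0.43 ± 0.11, adjusted p = 0.0339). This IgG change passed.

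The remaining mitotic genes followed the same order of models. The spindle checkpoint genes Bub1 and Bub1b rose by 0.57 ± 0.12 and 0.32 ± 0.08 in Smad4, 1.32 ± 0.09 and 1.07 ± 0.07 in Alk1, and 0.70 ± 0.10 and 0.80 ± 0.07 in Eng mutants. The kinesins Kif11, Kif20a and Kif23 rose by 0.35 to 0.69 in Smad4, 0.91 to 1.29 in Alk1 and 0.61 to 0.76 in Eng mutants. Tpx2, Nusap1 and Prc1, which build the spindle and its midzone, rose by 0.44 to 0.54, 1.19 to 1.22 and 0.70 to 0.76. Cdc20, the activator of the anaphase-promoting complex, rose by 0.46 ± 0.09, 0.96 ± 0.06 and 0.75 ± 0.09. Of the centromere genes, Cenpa and Cenpe rose in all 3 untreated models, though the Smad4 call of Cenpe was lost under 7 of 21 other settings, among them library totals, quantile normalization and leaving out wild type 3, 4 or 5. With the level of glial and neuronal markers as a term, the Smad4 calls of Cdk1, Bub1, Bub1b, Birc5 and Cenpa were lost. Cenpf rose in Alk1 (1.09 ± 0.12) and Eng (0.52 ± 0.11) mutants.

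The 39 members called higher under IgG depend on single libraries. The count was 3 without mutant 2, 16 without mutant 3, 21 without wild type 1 and 17 without wild type 3. It was 15 with the level of glial and neuronal markers as a term. Calls over all genes, in either direction, fell as well, from 2480 to 471, 1315, 1450 and 1219 in the same left-out fits. With the marker term they fell to 591. For the G2-M genes alone the count called higher was 21. It was 1 without mutant 2, 3 without mutant 3, 6 without wild type 1, 12 without wild type 2 and 3 without wild type 3. In the untreated models the count moved little on leaving out any one library, between 32 and 34 in Smad4, 44 and 45 in Alk1, and 43 and 44 in Eng.

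Other genes of the same machinery, 91 in 5 lists, rose more often than they fell. Of the 90 tested, 54 rose and 3 fell in Smad4 mutants, 73 and 3 in Alk1, 72 and 3 in Eng, and 52 and 2 under IgG, with medians of 0.32, 0.81, 0.53 and 0.46. Kinetochore, spindle and condensin genes rose in 26, 30, 29 and 25 of 31 in these comparisons. Examples are Anln (anillin of the cleavage furrow), with 0.71 ± 0.07 in Smad4 and 0.80 ± 0.08 in Eng, and Racgap1 (centralspindlin), with 1.19 ± 0.06 in Alk1. Under IgG, Ttk (the MPS1 kinase), Kif2c and Espl1 (separase) rose by 0.75 ± 0.12, 0.74 ± 0.12 and 0.64 ± 0.11. Smc4 (0.41 ± 0.06) and Nuf2 (0.47 ± 0.08) rose in Smad4, Cdca8 (1.24 ± 0.07) and Kif22 (1.15 ± 0.07) in Alk1, and Mad2l1 (0.69 ± 0.07) and Spc25 (0.69 ± 0.07) in Eng mutants.

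Replication origin and fork genes rose in 12 of 25 in Smad4, 21 in Alk1, 22 in Eng and 12 in IgG mutants, and none fell. Fen1, the flap endonuclease, rose by 0.56 ± 0.10 in Smad4, 0.55 ± 0.06 in Eng and 0.54 ± 0.07 under IgG. Rfc5 and Cdc45 rose by 0.42 ± 0.08 and 0.45 ± 0.09 in Smad4 and by 0.59 ± 0.09 and 0.74 ± 0.14 under IgG. Dbf4, Lig1 and Pold1 rose by 0.91 ± 0.06, 0.84 ± 0.09 and 0.81 ± 0.08 in Alk1, and Pole and Mcm10 by 0.68 ± 0.07 and 0.83 ± 0.09 in Eng mutants. Checkpoint kinases and CDC25 genes rose in 6, 10, 10 and 7 of 12 in Smad4, Alk1, Eng and IgG-treated Smad4 mutants. Wee1, which restrains Cdk1, rose by 0.55 ± 0.07 in Smad4, 0.31 ± 0.05 in Eng and 0.62 ± 0.06 under IgG. Cdc25a, which activates the kinases, rose by 0.35 ± 0.05 in Smad4, and Clspn by 0.50 ± 0.10 in Smad4 and 1.16 ± 0.10 in Alk1. Fbxo5 (0.80 ± 0.08) and Pkmyt1 (1.16 ± 0.12) rose in Alk1, Pkmyt1 (0.44 ± 0.06) and Chek1 (0.76 ± 0.12) in Eng, and Ccnf (0.61 ± 0.09) and Chek2 (0.53 ± 0.09) under IgG.

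Of the transcription factors that govern these genes, 8 of 17 rose in Smad4, 9 in Alk1, 8 in Eng and 7 in IgG mutants. Foxm1, the activator of mitotic genes, rose by 0.55 ± 0.10 in Smad4, 1.12 ± 0.07 in Alk1, 0.69 ± 0.09 in Eng and 0.55 ± 0.15 under IgG. Mybl2 and E2f8 rose by 1.17 ± 0.10 and 1.38 ± 0.12 in Alk1 mutants. E2f4 (0.46 ± 0.06) rose in Smad4, E2f7 (0.72 ± 0.05) in Eng, and E2f2 in Eng (0.60 ± 0.07) and IgG mutants (0.69 ± 0.09), where E2f8 rose by 0.64 ± 0.12. Tfdp1, the partner of E2F factors, rose by 0.25 ± 0.05 in Smad4, 0.36 ± 0.03 in Eng and 0.33 ± 0.06 under IgG. The falls were Lin52 in Smad4 (-0.27), E2f5 in Alk1 (-0.32) and Tfdp2 in Eng (-0.19).

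The other CDK inhibitors moved in both directions, and Cdkn1a further than any member. Cdkn1a (p21, chromosome 17, 29090976 to 29100727) averaged 9114 in Smad4 mutants, against 2486 in wild types (1.86 ± 0.14, adjusted p = 3.42e-06). It averaged 10800 in Alk1 mutants, against 2680 in wild types (1.86 ± 0.28, adjusted p = 0.000321), and 10260 in Eng mutants, against 3579 (1.53 ± 0.12, adjusted p = 4.83e-06). Under IgG it averaged 6789 in mutants, against 3336 in wild types (1.03 ± 0.28, adjusted p = 0.0434). The groups did not overlap in any of the 4. Cdkn1c (p57, chromosome 7, 143458339 to 143461050) averaged 707.5 in Smad4 mutants, against 2931 in wild types (-2.04 ± 0.07, adjusted p = 2.18e-08). It fell by 0.60 in Alk1, 0.81 in Eng and 1.39 in IgG mutants, again without overlap. Cdkn2b (p15) fell by 0.74, 0.55, 0.49 and 0.72 in Smad4, Alk1, Eng and IgG-treated Smad4 mutants. Cdkn3, a phosphatase of Cdk1 and Cdk2, rose in the 3 untreated models (0.59, 1.00 and 0.92), Cdkn2d (p19) rose in Alk1 and Eng mutants, and Cdkn2a was too low to be tested.

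The genotype effects were then compared between the untreated models, as signed differences of log2 fold changes in 1 fit of the 30 libraries. Model, age, tamoxifen schedule and table cannot be told apart in these differences. The mitotic genes rose less in Smad4 than in Alk1 mutants. The signed difference was called below 0 for 33 members and above 0 for none. Over all genes it was called below 0 for 8.15% and above 0 for 7.77%. Among the 33 were all 23 G2-M genes, 7 S genes (E2f1, Gins2, Pcna, Rrm1, Rrm2, Tyms and Tk1), Cdk2, Cdk6 and Cdkn2c. Cdk6 differs from the rest in that it fell in Smad4 mutants and was not called in Alk1 mutants. The Tyms call was lost under 12 of 27 other settings, among them library totals, quantile normalization and leaving out any of 9 single libraries (Smad4 mutants 2, 3 and 5 and wild types 4 and 5, Alk1 mutants 1 and 5 and wild types 4 and 5). The smallest adjusted p belonged to Cdk2 (-0.51 ± 0.07, adjusted p = 1.15e-05), Bub1b (-0.75 ± 0.11, adjusted p = 2.03e-05) and Cdk1 (-0.85 ± 0.13, adjusted p = 4.07e-05). The median difference was -0.66 over the G2-M genes and -0.39 over the S genes.

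Smad4 minus Eng differences were called for 3 members, all below 0, where 3.88% of all genes were called below 0 and 4.16% above. They were Bub1b (-0.48 ± 0.11, adjusted p = 0.00607), Cdk6 (-0.59 ± 0.16, adjusted p = 0.021) and E2f1 (-0.42 ± 0.13, adjusted p = 0.0462). Bub1b rose less in Smad4 than in Eng mutants, whereas Cdk6 fell in Smad4 mutants and was not called in Eng mutants. E2f1 was not called in Smad4 and rose in Eng mutants, and its difference was lost under 16 of 27 other settings, namely quantile normalization, no filter on low values and leaving out any of 14 single libraries (Smad4 mutants 1, 2 and 5 and wild types 1, 4 and 5, Eng mutants 1 to 4 and wild types 1, 2, 3 and 5). The median G2-M difference was -0.26. Dividing by library totals, which shifts the median of all genes to -0.12, gave 7 members.

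Alk1 minus Eng differences were called above 0 for 18 members and below 0 for 1. Over all genes 7.80% were called above 0 and 6.72% below. The 18 were 15 of the 23 G2-M genes, Tk1, Cdk2 and Cdkn2c. The smallest adjusted p belonged to Cdk2 (0.56 ± 0.07, adjusted p = 5.57e-06), Ccnd2 (-0.98 ± 0.19, adjusted p = 0.000676) and Kif11 (0.54 ± 0.12, adjusted p = 0.00347). Ccnd2 was the member called below 0, having fallen in Alk1 mutants without being called in Eng mutants. Several of the 18 calls were lost under many of the 27 other settings, Cenpa under 18, Cdkn2c under 15, Ccnb2 under 14, Birc5 under 13, Cenpf under 10, Kif23 under 8 and Top2a under 7. The 18 became 8 when libraries were divided by their totals, which shifts the median of all genes to -0.11, and 9 after quantile normalization. The count was 11 without Alk1 wild type 5, Eng wild type 4 or Eng wild type 5, and 10 without Eng mutant 4.

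**Figure D4:**
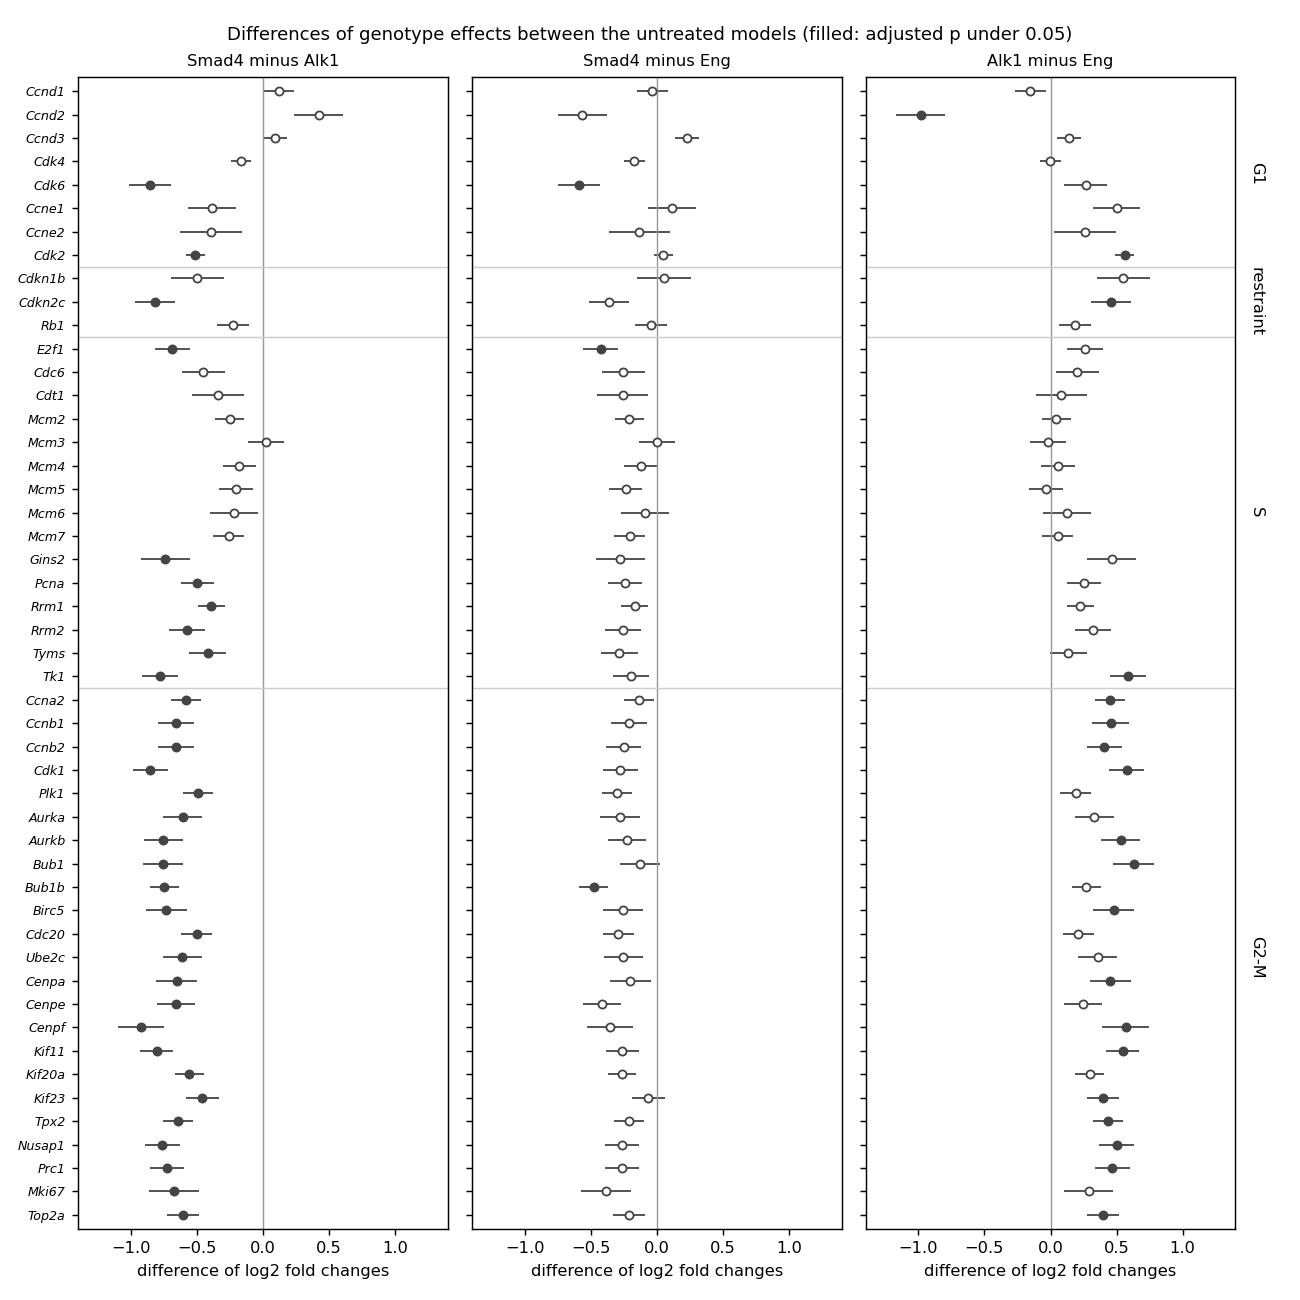
Difference of the log2 fold change (mutant over wild type) between pairs of untreated models, for each of the 49 genes; bars are standard errors and filled points passed an adjusted p of 0.05. All 23 G2-M genes lie left of 0 and are filled in Smad4 minus Alk1, 1 G2-M gene is filled in Smad4 minus Eng, and Ccnd2 is the point furthest left in Alk1 minus Eng (-0.98).

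The 3 LC10 libraries of Smad4 mutants are in a table of their own, so treatment and table cannot be told apart and no test was made. After scaling both tables by the median of ratios, the member genes had a median log2 signal 0.17 lower in LC10 mutants than in IgG mutants, with 46 of 49 means lower, where the median of all genes was -0.00. They stayed 0.39 above the IgG wild types at the median. All 3 LC10 libraries lay below all 3 IgG mutants for 10 members (9.42% of all genes did) and above them for Ccnd1 alone (8.93%). They lay above all 3 IgG wild types for 36 members, where 22.8% of all genes did.

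By phase, G2-M levels of the LC10 mutants were 0.40, 0.31 and 0.55 above the mean of the IgG wild types, against 0.35, 0.69 and 0.81 in the IgG mutants. Both mutant groups overlapped there, and the IgG wild types lay at -0.22, 0.17 and 0.05. S levels were 0.45, 0.37 and 0.37 in LC10 mutants, against 0.43, 0.62 and 0.60 in IgG mutants. G1 levels were 0.08, 0.09 and 0.04 in LC10 mutants, against 0.19, 0.13 and 0.17 in IgG mutants. Those of the 3 brakes were 0.01, -0.06 and -0.01, against 0.05, 0.15 and 0.15. In these last 2 classes the mutant groups did not overlap, and the LC10 levels lay within the range of the IgG wild types. Ccnd1 had scaled signals of 26628, 24393 and 24435 in LC10 mutants, against 19028, 17456 and 20911 in IgG mutants and 13032, 14979 and 14347 in IgG wild types. Cdk6 had 522, 586 and 559 in LC10 mutants, against 853, 657 and 654 in IgG mutants and 1368, 1237 and 1192 in IgG wild types. Ube2c had 818, 801 and 989 in LC10 mutants, against 788, 1214 and 1395 in IgG mutants and 544, 648 and 703 in IgG wild types. Scaling by library totals gave a median of -0.18 between the mutants, and the values as deposited gave -0.54, where the median of all genes was -0.38. Pericyte markers summed to 17834 to 27233 in LC10 mutants, against 35774 to 68129 in IgG mutants and 71336 to 98855 in IgG wild types, in deposited signal. The scaling factors were 0.77 to 0.78 in LC10 libraries and 1.00 in IgG libraries, so these sums are not on the same scale. The part of these markers in the differences above was not tested.

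**Figure D5:**
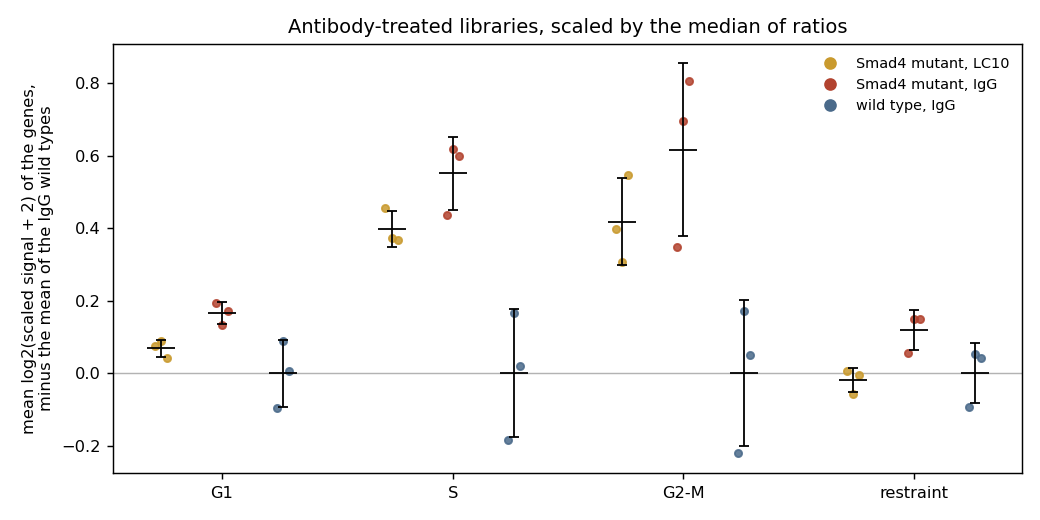
Mean log2(scaled signal + 2) over the genes of a phase in each antibody-treated library, minus the mean of the IgG wild types; bars are the mean and SD (3 libraries a group). S and G2-M levels of LC10 mutants lie above all IgG wild types and overlap the IgG mutants (G2-M 0.31 to 0.55 under LC10, 0.35 to 0.81 under IgG).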

How the data were processed

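The authors deposited 1 table of normalized signal per gene for each of 5 cohorts. The labels call these values raw counts. Each value was divided by the step between low values of its library. Of the values above 0, 14.4 to 24.9% were then whole numbers within 0.05. Among low values alone the share was 32.9 to 79.1%. The values were treated as signal and no count model was run. Reads were aligned to mm10, per the submitters' processing notes; no aligner, counter or normalization method is given in those sources. Of 24972 genes in each table, 26 were left out and 24946 kept, and 3 columns tied to no sample were not used. Depth, inferred from the step between low values, was 11.1 to 30.8 M fragments per library. No 2 columns were identical.

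Each table was fitted alone with limma 3.58.1 (R 4.3.3, trended variance) on log2(signal + 2), for genes at 20 or more in at least 5 libraries (3 in the antibody table). Values of p were adjusted by Benjamini-Hochberg over all genes tested, at 0.05. The steps were tested on simulated data. Differences between models came from 1 fit of the 30 untreated libraries. LC10 and IgG tables were scaled by the median of ratios. Gene positions are those of GENCODE M21 (GRCm38), where 98.07% of symbols matched. P-values measure the spread between libraries, which may be technical. Untreated library numbers follow the order of the columns, since the numbers in the column names are not tied to the titles. Among the Alk1 columns without a library code, deviations of same-numbered mutants and wild types had r = 0.19, 0.21 and 0.11. Differently numbered Smad4 libraries reached r = 0.36, so these values cannot show whether the numbers mark pairs.

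The members and gene lists were chosen with earlier results of these data known. Named by rule were, per comparison and phase, the 3 called genes with the largest changes, the 3 with the highest mean signal, any called against most of its class, and the 3 with the smallest adjusted p in each difference and in each list of other cycle genes. Alternatives were pseudocounts of 1 and 10, no filter, library totals, quantile normalization, library codes, marker level as a term and each library left out.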

Additional observations from a re-analysis of the deposited data

Results flagged for a closer look

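Single libraries stood apart from the rest of their group in 10 of 318 groups checked, where chance gives about 1 in 20. The lowest G1 level among Smad4 mutants was 0.0209 (library 5) and among Smad4 wild types -0.0969 (library 5), both against the wild type mean. Signal stood apart in Smad4 mutants for Rb1 (1998, library 3) and Kif11 (2253, library 2), and in Alk1 mutants for Ccnd3 (5073, library 1) and Tpx2 (5003, library 5). It did so in Alk1 wild types for Ccnd1 (18052, library 3) and Cdk2 (2881, library 1). In the Eng model it did so for Cdk6 in mutants (1646, library 5) and Mcm6 in wild types (6398, library 5).

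The genotype effect differed between Smad4 and Alk1 models for 33 members, with the smallest adjusted p for Cdk2 (-0.512), Bub1b (-0.748) and Cdk1 (-0.855). Between Smad4 and Eng models it differed for 3, namely Bub1b (-0.477), Cdk6 (-0.588) and E2f1 (-0.424). Between Alk1 and Eng models it differed for 19, with the smallest adjusted p for Cdk2 (0.562), Ccnd2 (-0.984) and Kif11 (0.545). These are differences of log2 fold changes in the limma fit of the 30 untreated libraries.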

How the results depend on the processing

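No member changed direction against its call under any alternative run. Among Alk1 mutants the G1 genes called higher numbered 3 after quantile normalization and 2 in libraries without a code. With the level of glial and neuronal markers as a term, the IgG cohort had 15 members called higher, 2 of them G1 and 2 G2-M genes. Calls over all genes there, in either direction, were 591, against 2480 without the term. Members with a Smad4 minus Eng difference called below 0 numbered 7 under library totals and 6 with library code as a term. The latter alternative was chosen after seeing the data. Those with an Alk1 minus Eng difference called above 0 numbered 8 under library totals and 9 under quantile normalization, with 6 G2-M genes in each. Values as deposited put LC10 below IgG mutants by a median of -0.54 over members, -0.57 over G2-M and -0.51 over S genes. The median of all genes was -0.38 in the same values. The cause of these shifts was not tested. With 1 library left out, the IgG counts called higher ran from 3 to 40 for all members, 1 to 4 for G1, 1 to 14 for S and 1 to 22 for G2-M genes. The Alk1 minus Eng counts ran from 10 to 22, and 8 to 18 for G2-M genes. With replicate number as a block, 42 members rose under IgG. Same-numbered IgG libraries did not deviate together (r = 0.06, 0.03 and -0.07), and the labels tie them by number alone. In the Smad4 and Alk1 libraries without a code, whose column names share the numbers 1 to 3, a replicate block chosen after seeing the data gave 28 and 36 members called higher, against 31 and 36 without the block, and 2 G1 genes in Alk1 mutants with or without it. Same-numbered Smad4 libraries did not deviate together (r = -0.08, 0.17 and -0.12). No such block could be fitted in the Eng table, because the Eng columns share no number between genotypes within a library code. Depth limits the low genes most, and its size is inferred.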
